A study of Mus musculus with 10 samples.

Results

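Protein kinase C (PKC) and protein kinase A (PKA) are serine/threonine kinases, and 9 of their subunit genes were read from the nucleus accumbens (NAc) counts by gene symbol. They are 5 PKC isozymes (Prkca, Prkcb, Prkcd, Prkce and Prkcz) and 4 PKA subunits (Prkaca, Prkacb, Prkar1b and Prkar2b), and all 9 were found among the 29883 genes counted. The NAc, which lies in the ventral striatum, was taken from adult male mice of the inbred strains C57BL/6J (B6, n = 5) and DBA/2J (D2, n = 5), none of which had been given ethanol. Each mouse gave 1 poly-A library, and neither strain carried an engineered allele or received a treatment. The comparison asks which genes differ at baseline between the ethanol-preferring B6 strain and D2, which drinks little ethanol.

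PKC isozymes fall into conventional forms, which need calcium and diacylglycerol (Prkca and Prkcb), forms that need diacylglycerol but not calcium (Prkcd and Prkce), and atypical forms that respond to neither (Prkcz). PKA is held inactive by regulatory subunits (here Prkar1b and Prkar2b), which release the catalytic subunits (Prkaca and Prkacb) when cAMP binds. In the striatum, dopamine receptors set the level of cAMP, and PKA phosphorylates DARPP-32, a regulator of protein phosphatase 1. Mice without the epsilon isozyme of PKC are known for low ethanol intake, and mice without the RII-beta subunit of PKA for high intake.

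The stretches just before the most upstream listed start of Prkaca, Prkcb and Prkcz are shown because these are the members that differed between the strains below. They are the 250 bases before each start in RefSeq (build GRCm38.p6, another build than that of the counts), read 5′ to 3′ on the strand of the gene. Prkaca lies on the + strand (window chr8:83972728-83972977), Prkcb on the + strand (chr7:122288875-122289124) and Prkcz on the - strand (chr4:155361429-155361678). Capitals mark the half-site of the cAMP response element (TGACG, or CGTCA on the other strand), the site of CREB, a transcription factor that PKA phosphorylates, and the GC box (GGGCGG, or CCGCCC on the other strand).
Prkaca: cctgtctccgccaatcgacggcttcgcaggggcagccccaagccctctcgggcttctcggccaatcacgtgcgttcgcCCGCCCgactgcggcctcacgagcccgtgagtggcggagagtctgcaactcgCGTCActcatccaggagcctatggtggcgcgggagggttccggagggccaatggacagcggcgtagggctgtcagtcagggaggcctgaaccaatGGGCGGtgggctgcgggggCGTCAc
Prkcb: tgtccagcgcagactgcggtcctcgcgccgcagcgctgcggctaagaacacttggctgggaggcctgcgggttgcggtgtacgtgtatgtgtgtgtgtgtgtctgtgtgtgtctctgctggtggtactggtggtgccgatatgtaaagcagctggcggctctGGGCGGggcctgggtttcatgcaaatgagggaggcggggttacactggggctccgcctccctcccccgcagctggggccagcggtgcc
Prkcz: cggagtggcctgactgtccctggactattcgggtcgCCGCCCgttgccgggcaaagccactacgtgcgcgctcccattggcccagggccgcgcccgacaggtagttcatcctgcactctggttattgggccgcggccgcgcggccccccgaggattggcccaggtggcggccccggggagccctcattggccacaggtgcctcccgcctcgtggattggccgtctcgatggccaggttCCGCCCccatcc
The Prkaca window held 2 half-sites and 2 GC boxes, the Prkcb window 0 and 1, and the Prkcz window 0 and 2, with no base shared between both kinds of motif. Among all 32851 windows of this length in the table, 17.8% held at least 1 half-site and 32.7% at least 1 GC box, and 12.4% held the TATA box (TATAAA, or TTTATA on the other strand), which none of these 3 windows held. Of the other members, the most upstream windows held 1 half-site in Prkacb and 0 in Prkca, Prkcd, Prkar1b and Prkar2b. Further downstream, the windows of listed starts 2 and 3 of Prkcz and of start 2 of Prkar1b held 1 half-site each, and the other downstream windows of the members held 0. These are matches of letters, and no binding was measured.

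The libraries held 96977262 to 116776714 counted reads, and a two-sided exact permutation test of this depth between the strains gave p = 0.063. B6 replicates 3 and 5 stood apart from the other mice. Their counts differed from each other by a mean chi-square of 4.89 per gene, where 1 is expected from sampling alone, and from the other 3 B6 mice by 85.5 to 119, while the other B6 mice differed among themselves by 19.1 to 23.8 and the D2 mice by 17.5 to 51.2. The summed level of 6 markers of cortical projection neurons was 929 and 941 CPM (counts scaled to a common library size) in these 2 mice, 74.2 to 159 in the other B6 mice and 213 to 579 in the D2 mice. The summed level of 5 oligodendrocyte markers was 5822 and 5783 CPM in these 2 mice, 3981 to 4757 in the other B6 mice and 3010 to 4400 in D2. The 8 markers of striatal projection neurons were all measured and summed to 2683 to 3614 CPM in B6, lowest in replicates 3 and 5, and 2318 to 2813 CPM in D2, so the labelled tissue was present in every library. No defining marker of the cortical, oligodendrocyte or striatal lists was at 0 in any mouse. The fits of the members and of the pathway genes below are therefore also given without B6 replicates 3 and 5. This choice was made after the data were seen. It left the B6 mice at cortex sums of 74.2 to 159 CPM, all below the 213 to 579 CPM of D2. All 6 cortex markers were called higher in D2 in that fit, so it cannot separate cortex marker level from strain. In bulk tissue, fewer cells of a type and less RNA per cell cannot be told apart.

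Of the 9 members, 3 differed between the strains: Prkaca was higher in D2, and Prkcb and Prkcz were lower (edgeR quasi-likelihood test with Benjamini-Hochberg adjustment over all genes, adjusted p below 0.05). Of all genes tested, 18.3% passed the same threshold, 8.50% higher and 9.83% lower in D2, and among the 10645 genes that averaged 1000 counts or more, which all 9 members did, 22.3% passed. Over all mice, a count of 3 among 9 members is thus near the background. The changes were small, with log2 fold changes (D2 against B6) between -0.22 and 0.15 over the 9 members, and all fitted levels are CPM after TMM normalization. Without B6 replicates 3 and 5, the members called were 6, with 3 higher and 3 lower in D2. In that fit 19.2% of all genes passed, 9.68% higher and 9.54% lower, and 26.2% of the 10645 well-counted genes. The count of 6 among 9 members lies above these shares, in the fit that cannot separate cortex marker level from strain. No test over the members was run.

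**Figure D1:**
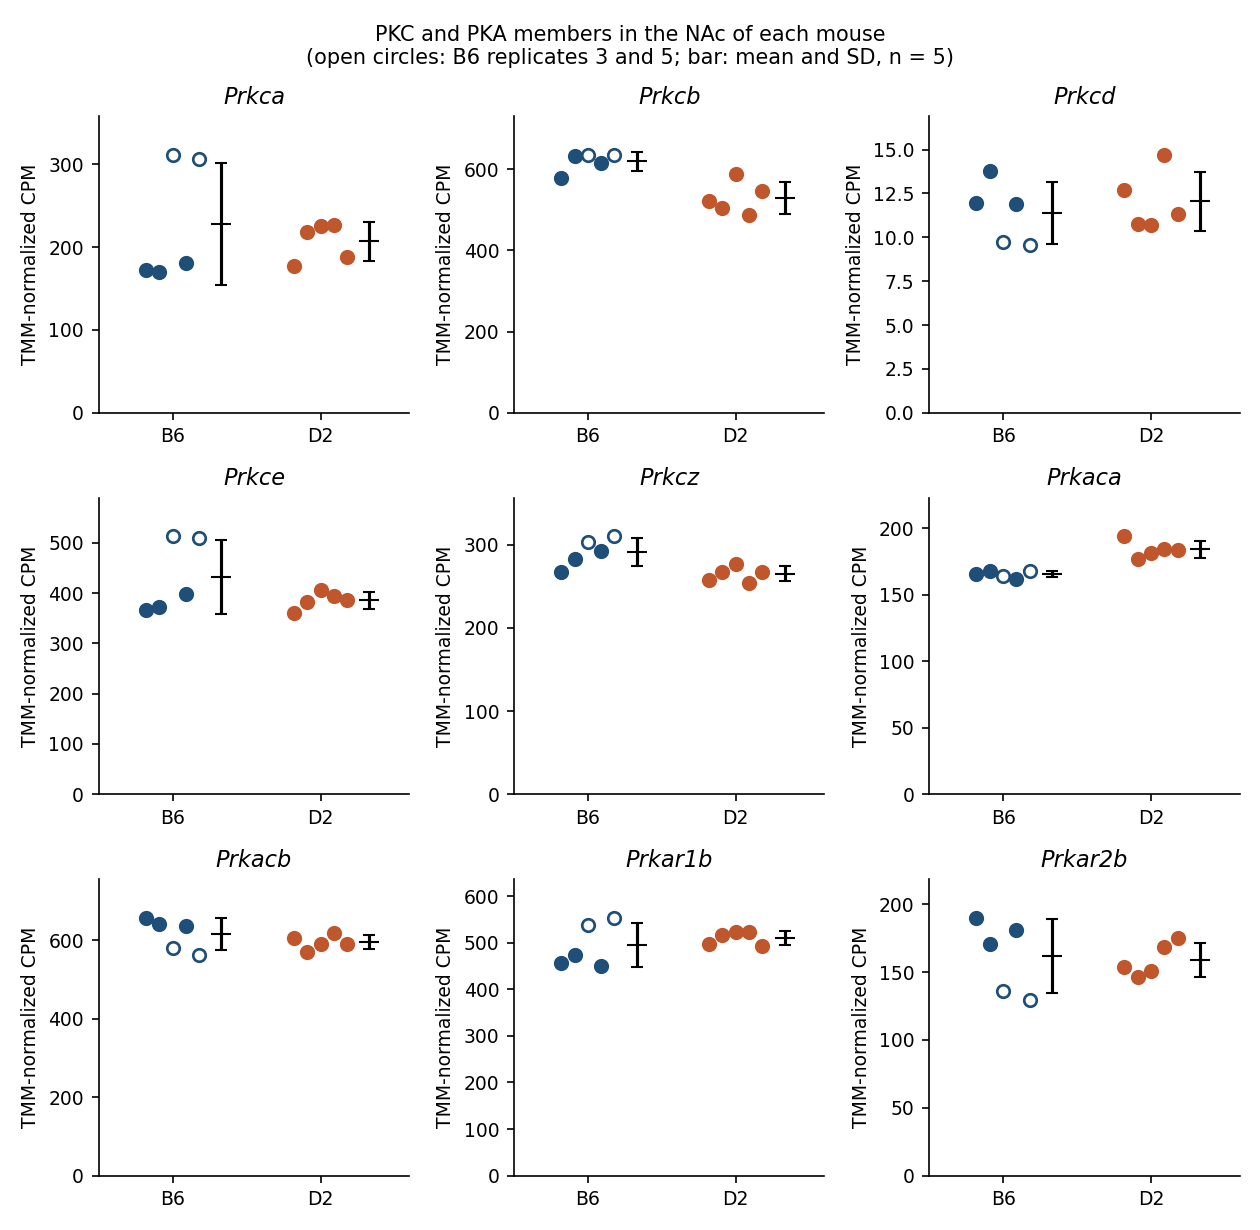
Level of each of the 9 members in each mouse (y axis, TMM-normalized CPM from 0) in B6 (blue) and D2 (orange), with B6 replicates 3 and 5 as open circles and the mean and SD of 5 mice beside them. For Prkaca all 5 D2 mice lie above all B6 mice, for Prkcb 4 of 5 D2 mice lie below them, and for Prkca and Prkce the open circles lie above every other mouse.

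Prkcb (ENSMUSG00000052889, GRCm39 chr7:121887974-122233625, + strand) encodes the conventional beta isozyme. Its levels were 578, 633, 633, 616 and 635 CPM in the 5 B6 mice and 521, 505, 589, 487 and 547 CPM in the 5 D2 mice. All B6 mice were high, and 4 of the 5 D2 mice lay below the lowest of them. The mean was 619 ± 23.99 CPM (SD, n = 5) in B6 and 529.8 ± 39.5 CPM (SD, n = 5) in D2, a log2 fold change of -0.22 (SE 0.0517, adjusted p = 0.00826 by edgeR). A two-sided exact permutation test of this gene alone gave p = 0.016, where 0.0079 is the smallest p that 5 against 5 mice allow. The gene stayed called without any 1 mouse and without B6 replicates 3 and 5 (-0.20, adjusted p = 0.0252 by edgeR). With the oligodendrocyte markers as a covariate the difference was -0.15 and no longer called (adjusted p = 0.185).

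Prkca (ENSMUSG00000050965, chr11:107824212-108235099, - strand), the conventional alpha isozyme, was not called. Its levels were 173, 170.4, 311, 181 and 306 CPM in the B6 mice and 177, 218, 225, 226 and 188 CPM in the D2 mice. B6 replicates 3 and 5 were higher than every D2 mouse, and the other 3 B6 mice reached only the lowest D2 mouse. Over all mice, D2 differed from B6 by a log2 fold change of -0.14 (SE 0.176, adjusted p = 0.672 by edgeR). Without these 2 B6 mice, it was 0.24 and called (adjusted p = 0.0423), so the direction turned. With the cortex markers as a covariate it was -0.24 and called (adjusted p = 0.000196), and with the oligodendrocyte markers 0.20 and not called (adjusted p = 0.68). The direction of Prkca therefore changed with the mice and the covariate used.

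Prkce (ENSMUSG00000045038, chr17:86474992-86965429, + strand) encodes the epsilon isozyme. It was measured at 366, 372, 513, 399 and 509 CPM in B6 and at 361, 382, 407, 394 and 387 CPM in D2. Here too B6 replicates 3 and 5 stood above all other mice, which lay in a common range. The log2 fold change was -0.16 (SE 0.0943, adjusted p = 0.295 by edgeR) over all mice and 0.03 (adjusted p = 0.762) without these 2 mice. The cortex covariate gave -0.22 (adjusted p = 4.9e-05) and the oligodendrocyte covariate 0.009 (adjusted p = 0.981).

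Prkcd (ENSMUSG00000021948, chr14:30317307-30349238, - strand), the delta isozyme, had by far the fewest counts of the members, with a mean of 1270.3 counts per library. Its levels were 12.0, 13.8, 9.72, 11.9 and 9.58 CPM in B6 and 12.7, 10.8, 10.7, 14.7 and 11.3 CPM in D2. The strains overlapped, and B6 replicates 3 and 5 were the lowest of all mice. The log2 fold change of 0.08 (SE 0.114) was not called (adjusted p = 0.714 by edgeR), and it was -0.06 (adjusted p = 0.76) without these 2 mice.

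Prkcz (ENSMUSG00000029053, chr4:155344575-155445909, - strand) encodes the atypical zeta isozyme and, from an internal start, the brain form PKM-zeta, which gene counts do not separate from it. Its levels were 268, 283, 304, 292 and 310.0 CPM in B6 and 257, 267, 277, 254 and 268 CPM in D2. B6 replicates 3 and 5 were the highest, and 4 of the 5 D2 mice lay below the lowest B6 mouse. The log2 fold change was -0.14 (SE 0.0437, adjusted p = 0.0465 by edgeR), with p = 0.016 in the exact permutation test. This call was close to the threshold, and it held in 2 of the 10 fits that left out 1 mouse, those without B6 replicate 1 and without D2 replicate 3. Without B6 replicates 3 and 5 the difference was -0.09 (adjusted p = 0.174). The oligodendrocyte covariate gave -0.06 (adjusted p = 0.571) and the cortex covariate -0.16 (adjusted p = 0.00152).

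Prkaca (ENSMUSG00000005469, chr8:84699575-84723091, + strand) encodes the alpha catalytic subunit of PKA. Its levels were 166, 168, 165, 162 and 168 CPM in B6 and 194, 177, 182, 185 and 184 CPM in D2. The strains did not overlap, and the B6 mice lay within a narrow range that included replicates 3 and 5. Over all genes, 16.0% showed no overlap between the 5 and 5 mice. The mean was 166 ± 2.50 CPM (SD, n = 5) in B6 and 184 ± 6.19 CPM (SD, n = 5) in D2, a log2 fold change of 0.15 (SE 0.0315, adjusted p = 0.00398 by edgeR). The exact permutation test gave its smallest possible p of 0.0079. The gene stayed higher in D2 and past the threshold under all 21 alternatives run for it, among them the fit without B6 replicates 3 and 5 (0.16, adjusted p = 0.0096 by edgeR), with log2 fold changes from 0.13 to 0.18 and adjusted p from 4.27e-05 to 0.0269. Of its exon bases, 8.64% lie opposite the noncoding gene Gm56840, which had a mean of 1.7 counts per library.

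Prkacb (ENSMUSG00000005034, chr3:146435311-146518793, - strand), the beta catalytic subunit, was measured at 658, 641, 581, 637 and 563 CPM in B6 and at 606, 572, 591, 618 and 591 CPM in D2. B6 replicates 3 and 5 were lower than the other B6 mice and lay among the D2 mice, so the strains overlapped. Its log2 fold change was -0.05 (SE 0.0475, adjusted p = 0.561 by edgeR) over all mice and -0.12 (adjusted p = 0.0349) without these 2 mice, which passed the threshold.

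Prkar1b (ENSMUSG00000025855, chr5:139002025-139136646, - strand) encodes the RI-beta regulatory subunit. Its levels were 457, 474, 538, 450.4 and 553 CPM in B6 and 497, 516, 523, 524 and 493 CPM in D2. B6 replicates 3 and 5 were above all D2 mice and the other 3 B6 mice below all of them. The log2 fold change was 0.05 (SE 0.0588, adjusted p = 0.683 by edgeR) over all mice and 0.15 (adjusted p = 0.0115) without these 2 mice. Prkar2b (ENSMUSG00000002997, chr12:32008448-32111363, - strand), the RII-beta subunit, was measured at 190.0, 171, 136, 181 and 129.7 CPM in B6 and 154, 146, 151, 169 and 175 CPM in D2. Its B6 replicates 3 and 5 were the lowest of all mice. The log2 fold change of Prkar2b was -0.03 (SE 0.101, adjusted p = 0.91 by edgeR) over all mice, and -0.19 and called (adjusted p = 0.0449) without them. With the oligodendrocyte covariate it was -0.30 (adjusted p = 0.0265) and with the cortex covariate 0.06 (adjusted p = 0.493).

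**Figure D2:**
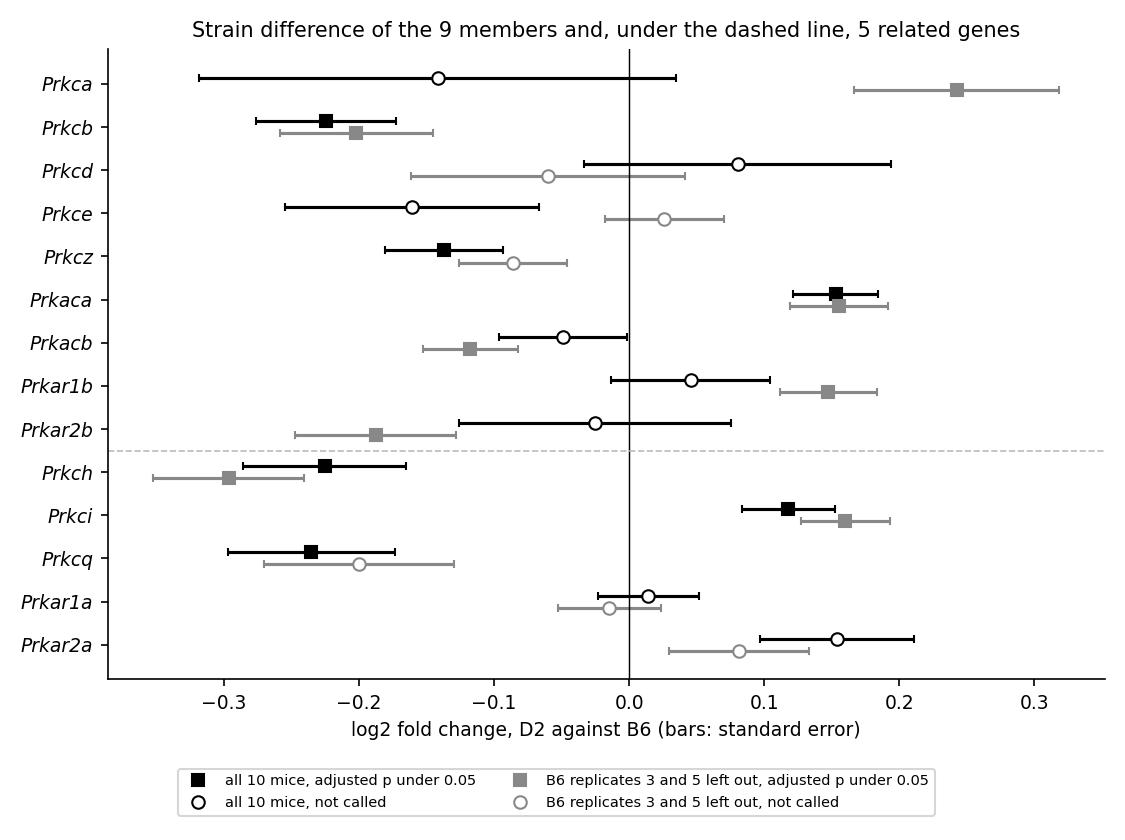
Log2 fold change of D2 against B6 (x axis, with the standard error) for the 9 members and 5 related genes, over all 10 mice (black) and without B6 replicates 3 and 5 (grey), with filled squares for an adjusted p below 0.05. Prkcb and Prkaca are filled in both fits on the same side of 0, while Prkca crosses from -0.14 to 0.24.

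The members moved in different directions in the 2 B6 mice with the highest summed cortex markers. Prkca, Prkce, Prkcz and Prkar1b were highest there, and Prkar2b and Prkcd lowest. Prkcb, at 633.4 and 634.7 CPM there, was barely above the other B6 mice (up to 632.6 CPM). These 2 mice also had the highest oligodendrocyte sums and, within B6, the lowest striatal sums. Which of these marker sets the split goes with was not tested. Within D2, Prkca was lowest in the mouse with the lowest cortex sum (177 CPM at a sum of 213 CPM) and next lowest at 307 CPM (188 CPM). It lay between 218 and 226 CPM in the 3 mice with sums of 467 to 579 CPM. In the order of rising sum, Prkce was at 361, 387, 394, 382 and 407 CPM. Prkar1b was at 497, 493, 524, 516 and 523 CPM. Prkcz (257, 268, 254, 267 and 277 CPM), Prkar2b (154, 175, 169, 146 and 151 CPM) and Prkcd (12.7, 11.3, 14.7, 10.8 and 10.7 CPM) showed no steady order. Prkaca, at 165 and 168 CPM in B6 replicates 3 and 5 and at 162 to 168 CPM in the other B6 mice, showed no such split. The strain difference of Prkaca was as large with the cortex covariate (0.16, adjusted p = 0.00127 by edgeR) and with the oligodendrocyte covariate (0.16, adjusted p = 0.0269), and that of Prkcb was -0.23 (adjusted p = 0.00169) with the cortex covariate and -0.15 and not called (adjusted p = 0.185) with the oligodendrocyte covariate. On the cortex marker scale the strains did not overlap within any range, with the B6 mice below and above all D2 mice.

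**Figure D3:**
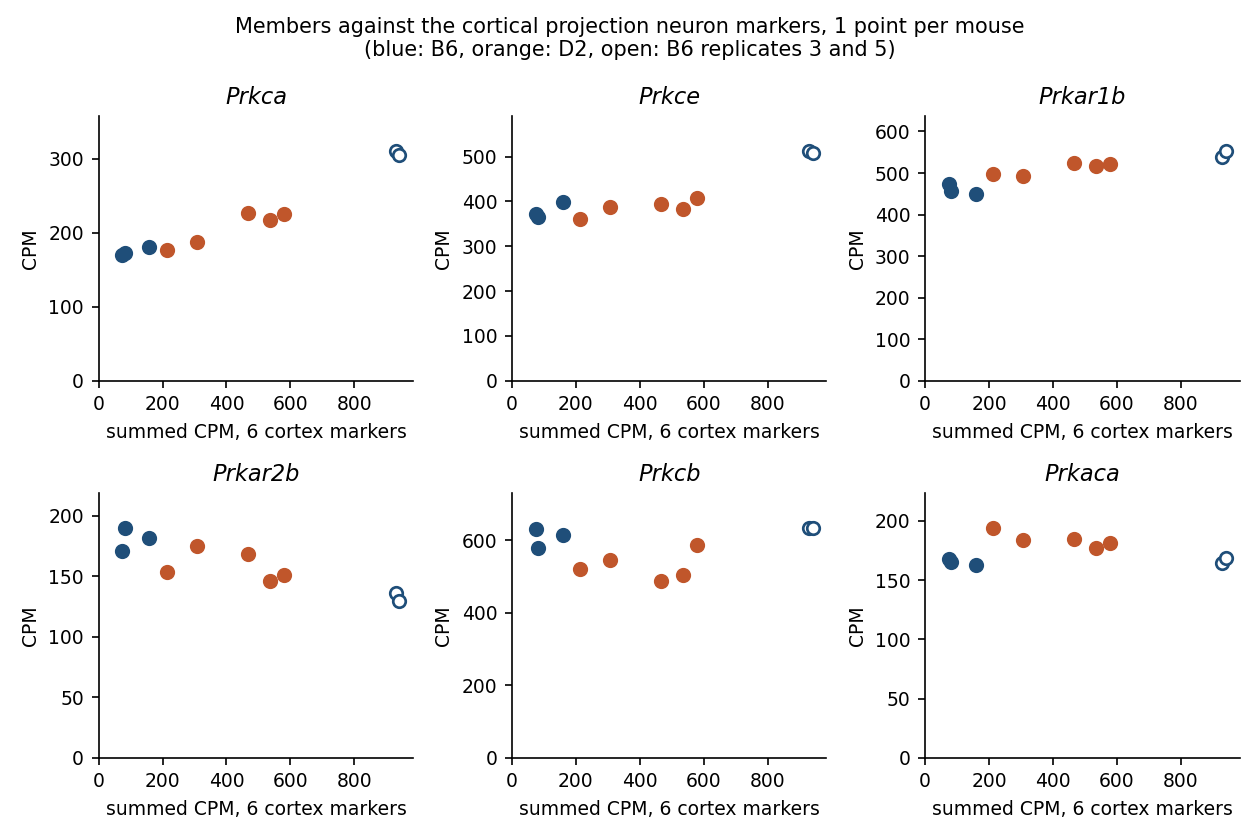
Level of 6 members in each mouse (y axis, CPM from 0) against the summed level of 6 cortical projection neuron markers (x axis, CPM), with B6 in blue, D2 in orange and B6 replicates 3 and 5 open. The open circles lie at 929 and 941 CPM on the x axis and are the highest points for Prkca, Prkce and Prkar1b and the lowest for Prkar2b, while for Prkaca all D2 mice lie above all B6 mice. The D2 mice lie between 213 and 579 CPM on the x axis, where no B6 mouse lies.

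Of the other isozymes and subunits of both kinases, 5 further genes were read, and 3 of them were called. Over all genes 18.3% were called, and 22.3% of those that averaged 1000 counts or more, as all 5 did. The values of the 5 and 5 mice did not overlap for 16.0% of all genes. Prkch, which encodes the eta isozyme, was measured at 53.3 to 64.3 CPM in B6 and at 44.6 to 53.0 CPM in D2, with no overlap (log2 fold change -0.23, SE 0.0602, adjusted p = 0.0196 by edgeR). Prkcq, the theta isozyme, was lower in D2 (-0.24, SE 0.062, adjusted p = 0.0182), with 11.9 to 15.0 CPM in B6 and 11.5 to 12.5 CPM in D2. Prkci, the atypical iota isozyme and closest relative of Prkcz, was higher in D2 (0.12, SE 0.0342, adjusted p = 0.03), at 58.8 to 63.6 CPM in B6 and 64.1 to 67.2 CPM in D2, again with no overlap. Both atypical isozymes thus passed the threshold, with Prkcz lower and Prkci higher in D2. The call of Prkci held in 4 of the 10 fits that left out 1 mouse, and those of Prkch and Prkcq in all 10. Without B6 replicates 3 and 5, Prkch and Prkci stayed called (-0.30 and 0.16) and Prkcq did not (-0.20, adjusted p = 0.069).

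The regulatory subunit Prkar1a, measured at 650.5 to 703 CPM in B6 and 657 to 710.3 CPM in D2, was not called (0.01, adjusted p = 0.856 by edgeR). Prkar2a, at 60.3 to 72.2 CPM in B6 and 69.0 to 82.0 CPM in D2, was not called either (0.15, adjusted p = 0.0856). Both were also not called without B6 replicates 3 and 5 (-0.01 and 0.08, adjusted p = 0.85 and 0.342).

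Levels of different genes were compared only per kb of exon, with the union of all annotated exons as the length. On this scale Prkacb had the highest mean over the 10 mice among the members (67.1 CPM per kb), followed by Prkaca (62.2), Prkar1b (59.2), Prkce (51.4), Prkcb (50.4) and Prkcz (43.0). Prkar2b (28.5) and Prkca (20.8) were lower, and Prkcd (1.03) was the lowest. Of the neighbours in this order, only Prkcz and Prkar2b and also Prkca and Prkcd were separated without overlap over the 10 mice, and Prkce lay above Prkcb in 5 of 10 mice. With the longest transcript as the length the order changed. Prkacb (133 CPM per kb), Prkar1b (128) and Prkcb (124) then led, with Prkaca (74.8) next, while Prkar2b (32.5), Prkca (24.5) and Prkcd (2.17) stayed the lowest 3. Apart from Prkacb, which led with both lengths, the ranks of the higher 6 depended on the length used, and gene counts do not show which transcripts are made.

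**Figure D4:**
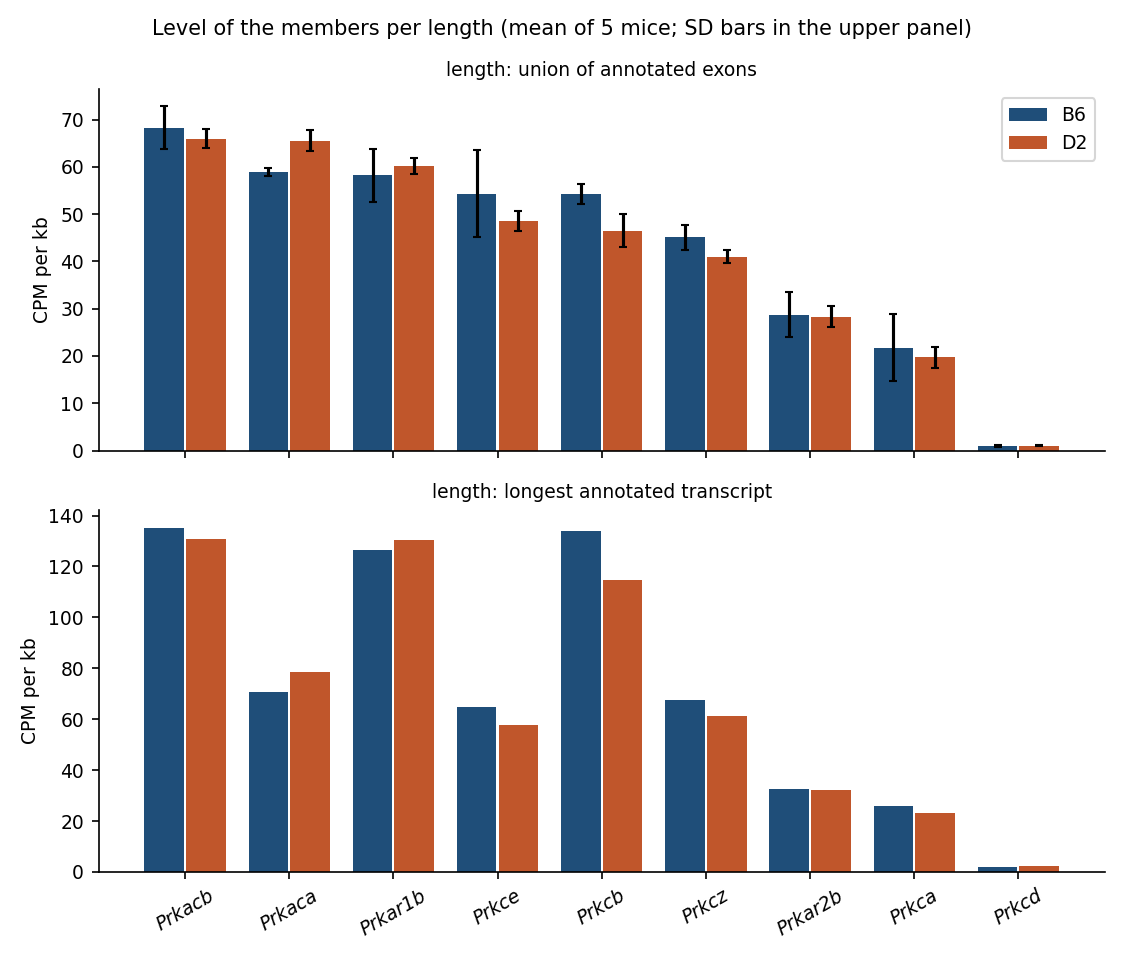
Mean level of the members in B6 (blue) and D2 (orange) per kb of length (y axis, CPM per kb from 0), with the union of exons as the length (upper panel, SD of 5 mice as bars) or the longest transcript (lower panel, means without error bars). Prkcd is near 0 in both panels (1.03 and 2.17 CPM per kb over all mice), and Prkcb and Prkaca change places between them.

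The makeup of each kinase was described from the same per-kb levels, without a test. Prkaca made up 44.7% to 49.0% of the summed level of both catalytic members in the B6 mice and 49.0% to 50.7% in the D2 mice (means 46.4% ± 1.83 and 49.8% ± 0.624, SD, n = 5), and B6 replicates 3 and 5 had the highest shares within B6. With the union of exons as the length, the mean of the other 3 B6 mice was 45.1%. With the longest transcript as the length, the means of all 5 mice were 34.4% in B6 and 37.6% in D2. The catalytic members stood to the regulatory ones as 1.46 ± 0.0631 in B6 and 1.49 ± 0.0538 in the D2 mice (SD, n = 5), with overlapping ranges. The sign of this difference turned without B6 replicates 3 and 5 (1.51 in the other 3 B6 mice) and with the longest transcript as the length (1.299 in B6 and 1.289 in D2), and it ran from 0.0021 (without D2 replicate 1) to 0.0397 (without B6 replicate 2) with 1 mouse left out. With Prkar1a and Prkar2a added to the regulatory subunits, it was 0.784 ± 0.0205 and 0.797 ± 0.0121. Prkcb made up 31.01% ± 2.69 of the 5 PKC members in B6 and 29.6% ± 1.45 in D2 (SD, n = 5), and Prkca 12.1% ± 2.54 and 12.6% ± 1.18. The Prkcb difference of -1.38 percentage points ran from -2.10 (without B6 replicate 3) to -0.65 (without B6 replicate 2) with 1 mouse left out and was -3.29 without B6 replicates 3 and 5. The Prkca difference of 0.45 ran from -0.09 (without B6 replicate 2) to 1.18 (without B6 replicate 3) and was 2.30 without both, so no direction is read from it. The summed PKC level was 177 ± 19.8 CPM per kb in B6 and 157 ± 7.02 in D2, but 162 in the 3 other B6 mice and 198 in B6 replicates 3 and 5. The summed PKA level was 214 ± 3.97 in B6 and 219.9 ± 4.74 in D2.

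Genes that feed PKA were read from the same fit. Of 9 adenylyl cyclases, which make cAMP, 0 were higher and 2 lower in D2 (median log2 fold change -0.03, against 0.0036 over all genes). Adcy5, the main cyclase of striatal neurons, was measured at 1178 to 1356 CPM in B6 and at 956 to 1099 CPM in D2, without overlap (-0.30, SE 0.0574, adjusted p = 0.00267 by edgeR), and Adcy4 was also lower (-0.86, adjusted p = 5.5e-06), at 3.45 to 4.13 and 1.89 to 2.24 CPM. With B6 replicates 3 and 5 left out, 2 cyclases were higher and 3 lower. Adcy4 (-0.81) and Adcy5 (-0.34) stayed called there, and Adcy1 (0.46, adjusted p = 0.000413, against -0.02 over all mice), Adcy6 (0.24, adjusted p = 0.0158) and Adcy3 (-0.13, adjusted p = 0.041), which are named after their values were seen, were called as well. Of the 3 PKA inhibitor peptide genes (Pkia, Pkib and Pkig), 0 were called in either fit. Pkig, named after its value was seen, narrowly missed the threshold over all mice (-0.12, adjusted p = 0.0511 by edgeR). It was called lower in D2 with DESeq2 (adjusted p = 0.0323), with DESeq2 size factors within edgeR (0.0495) and with low counts filtered (0.0293). It was not called with total counts (0.177) or upper quartile normalization (0.056). Of 12 measured A-kinase anchoring proteins, which hold PKA near its targets, 1 was higher and 2 were lower (median 0.02). Akap5, the anchor that brings PKA and PKC to the postsynaptic density, was lower in D2 (-0.23, SE 0.0658, adjusted p = 0.0261), at 282 to 362 CPM in B6 and 254 to 285 CPM in D2, and Akap11, which binds PKA regulatory subunits and glycogen synthase kinase, was higher (0.11, adjusted p = 0.0477). Without B6 replicates 3 and 5, 1 anchor was higher (Akap10, 0.15, adjusted p = 0.0436) and 1 lower (Akap5, -0.32), and Akap11 was not called (0.10, adjusted p = 0.119). Of 4 striatal PKA substrates (Ppp1r1b, which encodes DARPP-32, Arpp19, Arpp21 and Creb1), 0 were called over all mice (median -0.11). Ppp1r1b, at -0.23 (adjusted p = 0.0713 by edgeR), was called lower in D2 without B6 replicates 3 and 5 (-0.31, adjusted p = 0.0215), without B6 replicate 5 (-0.27, adjusted p = 0.0466), without D2 replicate 5 (-0.28, adjusted p = 0.0423) and with DESeq2 (adjusted p = 0.0407).

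On the side of PKC, 3 of 12 phospholipases C, which release diacylglycerol, were higher and 3 lower in D2 (median -0.02). Plcb1, the phospholipase behind many Gq-coupled receptors, was measured at 257 to 343 CPM in B6 and 211 to 243 CPM in D2, without overlap (-0.42, SE 0.0756, adjusted p = 0.00148 by edgeR). Plcb2 was lower as well (-0.30, adjusted p = 0.0153), and Plch1 (0.41, adjusted p = 0.0114) and Plcd3 (0.30, adjusted p = 0.0294) were higher, with Plch1 at 7.08 to 9.57 CPM in B6 and 9.38 to 12.7 CPM in D2. With B6 replicates 3 and 5 left out, again 3 phospholipases were higher and 3 lower, with Plcb1 (-0.29), Plcd3 (0.43) and Plch1 (0.35) called and Plcb2 not (-0.26, adjusted p = 0.0633). Of 9 diacylglycerol kinases, which remove diacylglycerol, 1 was higher and 1 lower (median -0.04). Dgkb, the diacylglycerol kinase abundant in striatal neurons, was lower in D2, at 374 to 454 CPM in B6 and 311 to 355 CPM in D2 (-0.32, SE 0.0536, adjusted p = 0.000913), and Dgkq was higher (0.21, adjusted p = 0.0385) but not without B6 replicates 3 and 5 (0.12, adjusted p = 0.153), where Dgkb was at -0.27 and called and Dgkz, named after its value was seen, was higher (0.19, adjusted p = 0.0247). Of 8 PKC partners, 1 was higher and 2 were lower (median -0.03). The scaffold of the atypical isozymes, Pard3, was lower (-0.18, adjusted p = 0.00459), and of the phosphatases that act on PKC, Phlpp1 was lower (-0.11, adjusted p = 0.0331) and Phlpp2 higher (0.14, adjusted p = 0.0216). Without B6 replicates 3 and 5, Pard3 (-0.22) was the only partner called, and both phosphatases missed the threshold (adjusted p = 0.124 and 0.0597). Of 4 neuronal PKC substrates (Marcks, Marcksl1, Gap43 and Nrgn), 0 were called in either fit (median 0.04). The shares called in these lists are to be read against the 18.3% of all genes over all mice and the 19.2% without B6 replicates 3 and 5.

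**Figure D5:**
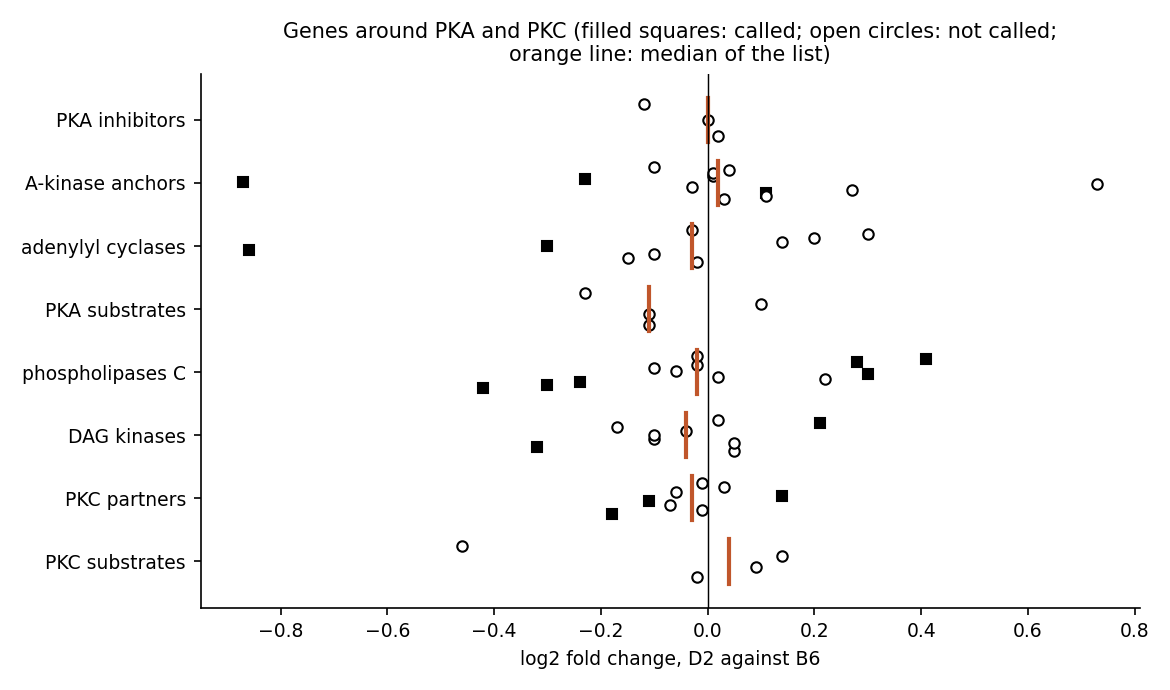
Log2 fold change of D2 against B6 (x axis) for each gene of 8 lists around PKA and PKC (rows), with filled squares for an adjusted p below 0.05, open circles for the rest and the median of each list as an orange line. The medians lie between -0.11 and 0.04, and called genes lie on both sides of 0 among the phospholipases C, the diacylglycerol kinases, the PKC partners and the anchors, but below 0 for the adenylyl cyclases.

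Several cell type markers differed between the strains as well, against a background of 18.3% of all genes called, 8.50% higher and 9.83% lower in D2. Of the 8 striatal projection neuron markers, 5 were lower in D2 (median -0.32), among them Penk (-0.52, adjusted p = 0.00737 by edgeR) and Drd2 (-0.46, adjusted p = 8.62e-06). Over all mice Drd1 (-0.06), Tac1 (-0.02) and Pdyn (0.01), named after their values were seen, were not called. Without B6 replicates 3 and 5, 6 were lower, Pdyn (-0.17, adjusted p = 0.0275 by edgeR) among them. Of the 5 oligodendrocyte markers, 3 were lower over all mice (median -0.35), with Mobp at -0.57 and Mog at -0.41, and 0 were called without those 2 mice. Of the 6 cortex markers, 0 were called over all mice and 6 were higher in D2 without them. Of 5 astrocyte markers, 1 (Gja1) was higher and 2 (Aldh1l1 and Aqp4) were lower, of 5 microglia markers 1 (P2ry12) was higher, of 6 thalamic and septal markers 1 (Trpc4) was higher, and of 4 endothelial markers 0 were called. Of 4 red blood cell genes 2 (Hbb-bt and Alas2) were lower, as was 1 of 4 choroid plexus and ependyma genes. The part of these cell types in the strain differences of Prkcb, Prkcz and Prkaca was not tested. Because 3 of the 5 oligodendrocyte markers were themselves lower in D2 over all mice, the fits with that covariate cannot separate marker level from strain.

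The spread of the members within the strains was described by Pearson's r of log2 CPM after the mean of each strain was removed. Over 10 mice, Prkca ran with Prkce (r = 0.97) and Prkar1b (0.957), and Prkacb with Prkar2b (0.91), while Prkca and Prkar2b ran in opposite directions (-0.857). In the 8 mice without B6 replicates 3 and 5 these values were 0.73, 0.701, 0.548 and -0.178. Prkcb and Prkcz ran together with r = 0.712 over 10 mice and 0.783 over 8. Prkaca ran most closely with Prkar1a over 10 mice (0.681, and 0.898 over 8), and with Prkar2a over 8 mice (0.906). Among 15387 genes that averaged 100 counts or more, the 3 whose pattern was most like that of Prkcb, the member with the largest change, were Tgfa (r = 0.989 over 10 mice, 0.992 over 8), Sec22b (0.979 and 0.98) and Cdkn1a (0.967 and 0.986). Tgfa, a ligand of the EGF receptor, was also lower in D2 (-0.49, adjusted p = 9.93e-06 by edgeR), and Sec22b and Cdkn1a were not called. All these values share libraries and normalization.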

How the data were processed

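The NAc of 5 B6 and 5 D2 mice was sequenced. Each mouse was a replicate, taken from the labels, and the p-values treat the mice as independent. This is not assured for B6 replicates 3 and 5, which were more alike (mean chi-square 4.89) than any other pair within a strain (17.5 or more). After trimming with fastp, the authors mapped the reads of both strains with STAR 2.7.10b to GRCm39, the genome of B6, used SAMtools 1.6, and counted reads per gene with featureCounts (tools and build per the submitters' processing notes). D2 reads with D2 alleles can be lost more easily. The deposited table holds raw counts for each gene. The authors name a stranded library kit, but whether strand was used in the counting is not given in the sources used here. Whether reads of opposite genes were kept apart is therefore not known. Genes with a median count of 0 had been removed by the authors.

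All 29883 genes were fitted with edgeR 4.0.16 in R 4.3.3 (TMM, quasi-likelihood F test, strain only, two-sided, Benjamini-Hochberg over all genes, threshold 0.05). Standard errors were taken as the size of the log2 fold change over the root of its F value. Exact permutation tests ran over the 252 assignments of 5 and 5 mice. Lengths and coordinates came from GENCODE M39, which held 29519 of the gene IDs. Promoters came from RefSeq, which had rows for 8 of the 9 members (not Prkce). Named genes were all members, the 6 related genes (1 of which is not reported here), from each other list at most 2 called genes in each direction with the largest change among those averaging 100 counts or more, and the 3 most alike genes. The members and lists were chosen with earlier results of these data known. The other alternatives were DESeq2 1.42.0, other normalizations and filters, mitochondrial genes left out, marker covariates, a replicate block and each mouse left out. Omission of B6 replicates 3 and 5 and the added regulatory subunits were chosen after the data were seen. Scripts were tested on simulated data. Figures used Python 3.11.15 with pandas 2.3.3, scipy 1.17.1, numpy 2.4.6 and matplotlib 3.10.9.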

Additional observations from a re-analysis of the deposited data

How the results depend on the processing

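Of the 20 alternatives for the count of genes called, 19 stayed within 1.5 times the 5478 of the report, and the oligodendrocyte covariate gave 3516. The cortex covariate gave 7816, and the fits that left out 1 mouse gave 4636 to 5676. Total counts put 45.04% of the calls lower in D2, against 53.61% in the report. The members called became 5 with the cortex covariate and 6 without B6 replicates 3 and 5. Log2 fold changes without those 2 mice were 0.24 for Prkca, -0.06 for Prkcd, 0.03 for Prkce, -0.09 for Prkcz, -0.12 for Prkacb, 0.15 for Prkar1b and -0.19 for Prkar2b. With the cortex covariate they were -0.24 for Prkca, -0.22 for Prkce and 0.06 for Prkar2b. With the oligodendrocyte covariate they were 0.20 for Prkca, -0.15 for Prkcb, -0.14 for Prkcd, 0.009 for Prkce, -0.06 for Prkcz and -0.30 for Prkar2b. Total counts gave -0.10 for Prkcz and 0.003 for Prkar2b, and DESeq2 size factors within edgeR -0.14 for Prkcz (adjusted p = 0.0551). The cause of these changes was not tested. With 1 mouse left out at a time, the log2 fold changes ran from -0.17 to -0.12 for Prkcz, -0.001 to 0.16 for Prkcd and -0.10 to 0.04 for Prkar2b, and Prkcz missed the threshold without B6 replicate 2, 3, 4 or 5 and without D2 replicate 1, 2, 4 or 5. The sign of Prkcd turned without D2 replicate 4 (-0.001), and that of Prkar2b without B6 replicate 1 (0.04) or 4 (0.02) and without D2 replicate 2 (0.004), and none of these was called. Prkaca kept its direction and call under all 21 alternatives. With the longest transcript as the length, the levels were 124 CPM per kb for Prkcb, 2.17 for Prkcd, 61.3 for Prkce, 64.4 for Prkcz, 74.8 for Prkaca, 133 for Prkacb, 128 for Prkar1b and 32.5 for Prkar2b.

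The same replicate numbers occur in both strains, and same-numbered mice deviated with r between -0.40 and 0.37. For replicate numbers 1 and 3 the most similar D2 mouse had the same number (r = 0.366 and 0.363), and for the others it did not. These values cannot decide whether the numbers pair the mice, which were fitted as unpaired. A replicate block gave 4731 genes called and 3 members.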
